A study of Rattus norvegicus with 12 samples.

Results

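The genes described here are the ubiquitin conjugating enzymes, ubiquitin ligases and deubiquitinases that the array measured in whole rat pancreas. They were found by their gene symbol, which had to start with Ube, Usp, Rnf, Herc, Fbxo, Fbxw or Trim and to be the single symbol of a probe set in the platform annotation, with Herc4 and Ube2c left out, and 1 probe set was kept per gene, the one with the highest mean over the 12 arrays. This gave 158 genes, which carried 198 probe sets, out of 10411 genes with a single symbol on the array. By role they were 26 conjugating enzymes of the Ube2 type, 6 HECT ligases (Herc and Ube3), 45 RING ligases (Rnf), 22 tripartite motif ligases (Trim), 2 U-box ligases (Ube4), 23 F-box receptors (Fbxo and Fbxw) and 34 deubiquitinases (Usp). The symbol set the membership, so a few members act on relatives of ubiquitin, such as Uspl1, which cleaves SUMO.

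Pancreas RNA of adult male Wistar rats was read on Affymetrix RAE230-A chips, 3 arrays for each of 4 groups, and an array held RNA pooled from 3 rats. Healthy rats were left untreated (HU) or were treated with sodium tungstate (HT), and rats made diabetic with streptozotocin (STZ), a toxin that kills beta cells, were left untreated (DU) or were treated with tungstate (DT). Per the labels, tungstate was given at 0.7 g/L for 1 week and at 2 g/L for the following 4 to 5 weeks. By those labels this lasted until glycemia came near to normal in the diabetic rats, and untreated rats were kept for 5 to 6 weeks. The study's paper gives 2 g/L for 5 weeks, names no step at 0.7 g/L, and calls the recovery of glycemia partial. The p-values measure the spread between pools, not between rats, and in RNA of a whole organ fewer cells of a type and less RNA per cell cannot be told apart.

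Ubiquitin is a small protein that is attached to other proteins through a chain of enzymes: an activating enzyme (E1) charges it, a conjugating enzyme (E2) carries it and a ligase (E3) places it on the substrate. HECT ligases take ubiquitin onto themselves first, while most RING, U-box and Trim ligases bring the charged E2 to the substrate. F-box proteins are the substrate receptors of the SCF (Skp1, cullin, F-box) ligases, and deubiquitinases take ubiquitin off. Chains of ubiquitin send proteins to the proteasome or change their place and partners, and the pancreas, whose acinar and beta cells make large amounts of secreted protein, uses the same enzymes to clear misfolded proteins from the endoplasmic reticulum (ER).

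Members past the threshold in a comparison, that is with a Benjamini-Hochberg adjusted p under 0.05 over all 15866 probe sets tested with limma, were 5: the F-box receptor Fbxo9, the RING ligases Rnf128 and Rnf103, the deubiquitinase Usp38 and the conjugating enzyme Ube2o. The other 153 members passed in none of the 5 contrasts. The promoters of the called genes are shown as the sequence next to the start of each gene whose level differed. The RefSeq table (build GRCr8) held 3 of the 5, from 250 bases before to 50 bases after the start of the gene, and Rnf103 and Ube2o were not in it. Capitals mark the motifs searched, on both strands. The motif of the general activator Sp1 was spelled GGGCGG. The box bound by the factor NF-Y was spelled CCAAT. For the ETS family the letters were CCGGAA. For NRF1, a regulator of mitochondrial genes, they were GCGCATGC. The E-box of basic helix-loop-helix factors was CACGTG. For the insulin-regulated FoxO factors the letters were GTAAACA. For the stress factors ATF4 and CHOP they were TGATGCAA. The unfolded protein response element (UPRE) was TGACGTGG. No motif contains another.
Fbxo9, chr8:87863891-87864190, minus strand: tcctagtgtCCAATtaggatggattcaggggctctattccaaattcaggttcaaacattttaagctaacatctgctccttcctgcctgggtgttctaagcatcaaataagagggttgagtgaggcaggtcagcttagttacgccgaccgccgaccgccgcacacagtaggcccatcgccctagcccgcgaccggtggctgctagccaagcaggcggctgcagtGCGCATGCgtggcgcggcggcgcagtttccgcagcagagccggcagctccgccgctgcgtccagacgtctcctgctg
Rnf128, chrX:108028138-108028437, plus strand: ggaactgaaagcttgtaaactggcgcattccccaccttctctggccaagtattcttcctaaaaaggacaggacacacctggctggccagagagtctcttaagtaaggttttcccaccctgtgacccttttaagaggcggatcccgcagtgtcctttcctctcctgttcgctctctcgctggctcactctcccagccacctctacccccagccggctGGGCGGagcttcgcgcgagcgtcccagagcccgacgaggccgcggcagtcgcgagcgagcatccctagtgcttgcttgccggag
Usp38, chr19:43910224-43910523, plus strand: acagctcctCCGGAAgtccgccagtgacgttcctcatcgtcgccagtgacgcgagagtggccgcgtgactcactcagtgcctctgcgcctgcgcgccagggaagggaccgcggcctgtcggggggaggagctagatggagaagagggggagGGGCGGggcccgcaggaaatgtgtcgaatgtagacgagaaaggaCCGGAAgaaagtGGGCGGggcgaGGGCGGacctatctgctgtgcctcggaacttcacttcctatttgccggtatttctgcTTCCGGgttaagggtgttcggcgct

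The 3 promoters differed in the letters they held. The Fbxo9 promoter had a CCAAT box at position -241 from the start and an NRF1 motif at -27, the Rnf128 promoter had 1 Sp1 motif at -34, and the Usp38 promoter had 3 Sp1 and 3 ETS motifs. None of the 3 held the FoxO, ATF4 and CHOP, E-box or UPRE letters. Of the 158 members, 131 had a promoter in the table, and their median GC content was 62.7%, against 52.3% over all 27457 promoters. The Sp1 letters stood in 67.2% of member promoters and in 34.7% of all, ETS in 27.5% and 15.8%, NRF1 in 6.11% and 2.66%, and UPRE in 3.05% and 0.637%. CCAAT stood in 34.4% and 37.7%, the E-box in 4.58% and 6.63%, FoxO in 3.82% and 3.80%, and the ATF4 and CHOP letters in none of the member promoters and in 0.743% of all. The Sp1, ETS and NRF1 letters are rich in G and C, as the member promoters are, and the shares are a description.

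DU vs HU asks what diabetes changed in untreated rats. Fbxo9, Rnf128, Rnf103 and Usp38 were higher in the diabetic pancreas by 1.29- to 1.54-fold, and Ube2o was lower by 1.44-fold. These 5 of 158 members make 3.16%, beside 3.20% of all probe sets tested, with 4 higher members beside 1.47% of all and 1 lower beside 1.73%. The share of members that differed was therefore close to that of the array as a whole. By the B-statistic above 0, the criterion in the study's methods, 3 members were called, beside 1.82% of all probe sets.

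Fbxo9 is the receptor of an SCF ligase. Its log2 intensity was 7.94, 7.67 and 7.71 in HU, 7.75, 8.05 and 8.03 in HT, 8.46, 8.36 and 8.38 in DU and 8.18, 8.23 and 8.45 in DT. All 6 diabetic arrays lay above all 6 healthy ones. The difference was 0.62 ± 0.11 (log2, SE, n = 3 arrays a group) in DU vs HU, 1.54-fold, with an adjusted p of 0.00551 by limma, and 0.51 ± 0.11 in DT vs HU, with an adjusted p of 0.0327. In DT vs DU it was -0.11, with a 95% interval from -0.34 to 0.12 and an adjusted p of 0.837.

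Rnf128, also called GRAIL, is a membrane-bound RING ligase known from T cells that no longer respond to antigen. Its log2 intensity was 7.36, 7.26 and 7.31 in HU, 7.48, 7.52 and 7.59 in HT, 7.93, 8.05 and 7.68 in DU and 7.70, 7.82 and 7.98 in DT. The diabetic arrays again lay above every healthy one, and the HT arrays lay above the HU arrays. The difference was 0.58 ± 0.10 in DU vs HU (adjusted p = 0.00665 by limma) and 0.53 ± 0.10 in DT vs HU (adjusted p = 0.0251 by limma). The HT vs HU difference was 0.23, with an interval from 0.01 to 0.44, and did not pass (adjusted p = 0.871 by limma).

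Of the leukocyte markers, which include Cd3e of T cells, 0 of 9 measured passed in either direction in DU vs HU or DT vs HU. Their summed linear signal was 3500 to 7620 in HU, 3980 to 6250 in DU and 2190 to 6160 in DT, so the groups overlapped. Bright markers such as Lyz2 (mean 10.4 over the arrays) and Cd74 (10.2) weigh most in that sum, while Cd3e had a mean of 5.06. The part of T cells in the Rnf128 difference was not tested.

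Rnf103 is a RING ligase of the ER membrane. Its log2 intensity was 6.48, 6.47 and 6.65 in HU, 6.75, 6.73 and 6.84 in HT, 7.11, 7.01 and 6.88 in DU and 6.99, 6.82 and 7.31 in DT. The HU arrays lay below all others, and the lowest DT array lay within the HT range. The difference was 0.47 ± 0.11 in DU vs HU (adjusted p = 0.0402 by limma) and 0.51 ± 0.11 in DT vs HU (adjusted p = 0.0469 by limma), and 0.04 in DT vs DU, with an interval from -0.20 to 0.28.

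Usp38 is a deubiquitinase with known substrates in the nucleus and in innate immune signalling. Its log2 intensity was 6.74, 6.74 and 6.68 in HU, 6.79, 6.87 and 6.92 in HT, 7.02, 7.04 and 7.20 in DU and 6.84, 6.55 and 6.56 in DT. The DU arrays lay above all others, and the DT arrays spread across the HU range. The difference between DU and HU was 0.37 ± 0.09 (adjusted p = 0.0459 by limma) and that between DT and DU was -0.43 ± 0.09, 1.35-fold lower (adjusted p = 0.0370 by limma).

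Usp38 was the single member that passed both against HU in untreated diabetic rats and against DU after treatment, once higher and once lower. Both comparisons share the DU arrays, so a high value of those arrays enters both. In DT vs HU its difference was -0.07, with an interval from -0.26 to 0.13. The tungstate effect in diabetic rats minus that in healthy rats, the interaction, was -0.57 ± 0.13 and did not pass (adjusted p = 0.101 by limma).

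Ube2o is a large enzyme with both E2 and E3 activity that is known for clearing unassembled proteins, ribosomal ones included, while red blood cells mature. Its log2 intensity was 6.50, 6.33 and 6.52 in HU, 6.61, 6.34 and 6.29 in HT, 5.76, 6.07 and 5.94 in DU and 6.16, 6.10 and 6.09 in DT. All diabetic arrays lay below all healthy ones. The difference was -0.53 ± 0.10 in DU vs HU (adjusted p = 0.0133 by limma), and -0.34 in DT vs HU, which did not pass (adjusted p = 0.132 by limma).

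Red blood cell markers moved the same way as Ube2o. Of the 2 measured, Hbb, the beta chain of haemoglobin, fell by 1.19 on the log2 scale in DU vs HU (adjusted p = 0.0364 by limma), and Alas2, which starts haem synthesis in red cell precursors, had a difference of -0.39 (adjusted p = 0.0620 by limma). Their summed linear signal was 2590 to 4920 in HU, 2430 to 3530 in HT, 1260 to 1750 in DU and 1190 to 2250 in DT. The part of red cells in the Ube2o difference was not tested.

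**Figure D1:**
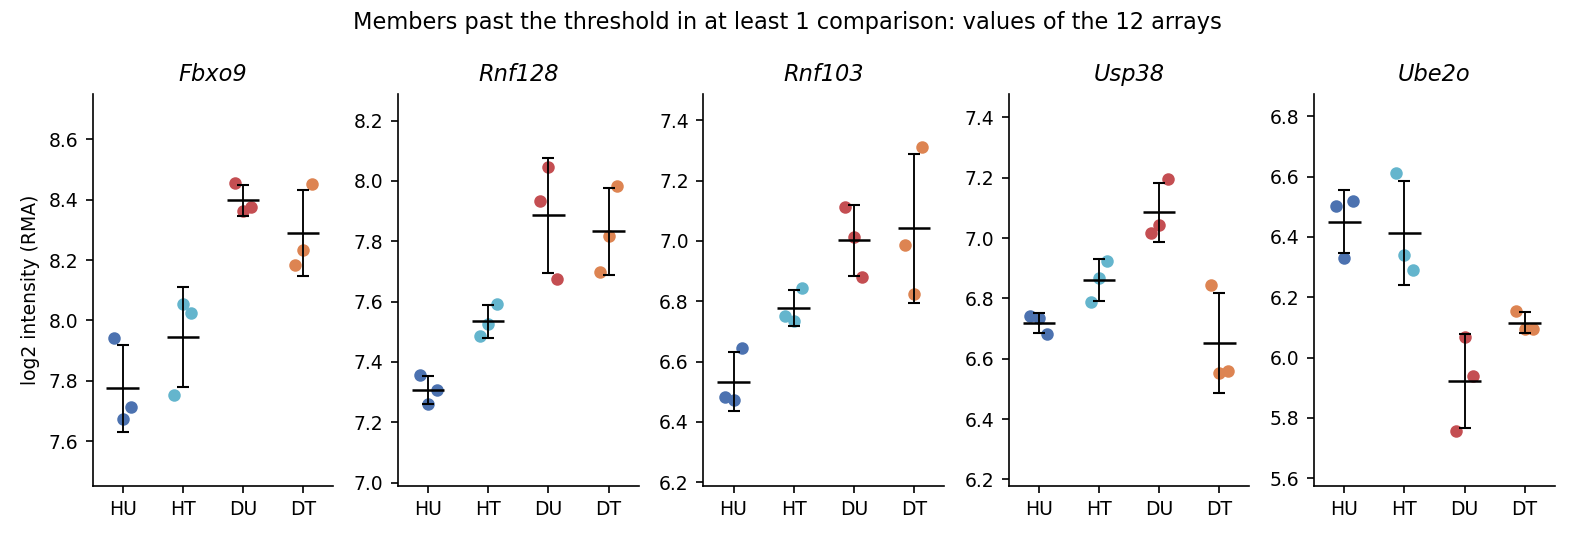
Log2 intensity (RMA scale, vertical axis, a span of the same height in each panel) of the 5 members past the threshold in at least 1 comparison, by group (horizontal axis). Points are arrays, lines are group means and bars are 1 SD (n = 3). Fbxo9, Rnf128 and Rnf103 are higher in DU and DT than in HU, Usp38 is highest in DU, and Ube2o is lower in both diabetic groups.

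These calls depended on how the scan day and the chip lot were treated, which differed between groups. There were 6 scan days and 3 lots, and DU and HU arrays never shared a scan day. With scan day as a block no member passed in any comparison. The differences in DU vs HU were then 0.86 for Fbxo9, 0.77 for Rnf128, 0.77 for Rnf103, -0.61 for Ube2o and 0.10 for Usp38. Days 2, 4 and 6 held arrays of 1 group, so DU2, DU3, HU1 and HU2 had no weight in these differences. DU1 was compared with HU3 through DT and HT arrays, so this fit cannot decide the DU vs HU calls. With chip lot as a block, Fbxo9 still passed in DU vs HU (0.61, adjusted p = 0.0408 by limma), while Rnf128 (0.55, adjusted p = 0.0679), Ube2o (-0.50, adjusted p = 0.0976), Rnf103 (0.38, adjusted p = 0.256) and Usp38 (0.35, adjusted p = 0.204) did not.

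Lot 1 held DU1, DU2 and HU3, and the mean of these DU arrays minus HU3 was 0.70 for Fbxo9, 0.68 for Rnf128, 0.42 for Rnf103, 0.35 for Usp38 and -0.61 for Ube2o. The DU and HU arrays of these genes did not overlap, so the sign within the lot was fixed by that. In DT vs DU, all Usp38 DT arrays lay below its DU arrays, so the sign within a batch was fixed there too. Usp38 differed in that comparison by -0.32 within scan day 1, by -0.33 within lot 1 and by -0.64 within lot 3. That call was lost with chip lot as a block (adjusted p = 0.0571 by limma), with median centring (0.0503), with scan day as a block (0.460) and with the 6 arrays compared alone (0.195). With chip lot as a block no member passed in DT vs HU. Lot 1 also held DT1 and DT2, which exceeded HU3 by 0.50 in Fbxo9, by 0.45 in Rnf128 and by 0.26 in Rnf103. The DT and HU arrays of these genes did not overlap either, so these signs were fixed as well.

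Leaving out each of the 12 arrays in turn, Fbxo9 and Rnf128 passed in DU vs HU every time, with adjusted p from 0.00355 to 0.0335 and from 0.00284 to 0.0398. Ube2o missed the threshold in 3 of the 12 fits (without DU1, HU1 or HU3, adjusted p up to 0.0741). Rnf103 missed it in 7 (without DU1, DU2, HT1, HT2 or any HU array, up to 0.153) and Usp38 in 8 (the same arrays or DU3, up to 0.135). In DT vs HU, Rnf128 missed it in 5 (without DT2, DT3 or any HU array, up to 0.0977), Fbxo9 in 7 (without any DT array, DU1, DU2, HU2 or HU3, up to 0.123) and Rnf103 in 10 (all but HT3 and DT2, up to 0.146). Usp38 missed it in DT vs DU in 9 (all but HU3, HT3 and DT1, up to 0.138).

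DT vs DU asks what tungstate changed in diabetic rats. Usp38 was the 1 member of 158 that differed, which is 0.633%, beside 1.12% of all probe sets (0.655% higher and 0.460% lower). The B-statistic called 1 member too, beside 1.05%. Past 1.25-fold, with no test, were 5 members (3.16%), beside 5.09% of all.

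DT vs HU asks what still differed from healthy rats after the treatment. Fbxo9, Rnf128 and Rnf103 were higher by 1.42- to 1.44-fold and no member was lower. These 3 members make 1.90%, beside 1.32% of all probe sets (0.756% higher and 0.561% lower), and the B-statistic called 2, beside 1.18%. DU vs HU and DT vs HU share the HU arrays, so the 3 genes counted in both are not counted on separate evidence. Between DT and DU these 3 genes differed by -0.11 to 0.04.

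HT vs HU asks what tungstate did in healthy rats. No member passed the adjusted threshold by limma, beside 0.00630% of all probe sets, and the B-statistic called none, with 0% of all. At an unadjusted p under 0.05 there were 9 members (5.70%), beside 5.41% of all. Past 1.25-fold were 5 members (3.16%), beside 1.97%: Rnf115, Rnf149 and Trim35 in the lower direction and Fbxw4 and Rnf25 in the higher. The interaction also had 0 members past the adjusted threshold, beside 0.422% of all probe sets, 0 by the B-statistic, beside 0.580%, and 9 (5.70%) at an unadjusted p under 0.05, beside 8.75%.

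The medians of the members' differences lay within 0.05 of 0. Their median log2 difference was -0.01 for DU vs HU, 0.01 for DT vs DU, -0.02 for DT vs HU, -0.03 for HT vs HU and 0.05 for the interaction, and the medians over all probe sets were -0.02, 0.00, -0.02, 0.00 and 0.00. In HT vs HU, 69 of the 158 members lay above 0. The median intensity of the members was 7.22, 7.17 and 7.10 on the HT arrays and 7.22, 7.17 and 7.19 on the HU arrays. The value of HT3, which came from lot 3 and scan day 5 unlike HT1 and HT2, was the lowest of the 12 arrays. DT3, from the same lot and scan day, had 7.20, and DU3, also of lot 3, had 7.18. The part of the batch in the HT3 value was not tested. The spread of the differences over genes was SD 0.19 for the members and 0.25 for all probe sets between DU and HU, 0.13 and 0.20 between DT and DU, and 0.18 and 0.21 between DT and HU. Between HT and HU it was 0.135 and 0.132. Past 1.25-fold in DU vs HU were 12 members (7.59%), beside 10.2% of all, and in DT vs HU 14 members (8.86%), beside 8.31%.

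The intervals show how far a change could be missed. The 95% interval of the difference lay within 1.5-fold in either direction for 144 of the 158 members between DU and HU (91.1%), for 154 between DT and DU (97.5%), for 146 in DT vs HU (92.4%) and for 151 in HT vs HU (95.6%). The median standard error of a difference was 0.10. Within 1.25-fold the interval lay for 69, 86, 75 and 83 members, so changes of that size were not bounded for the rest.

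**Figure D2:**
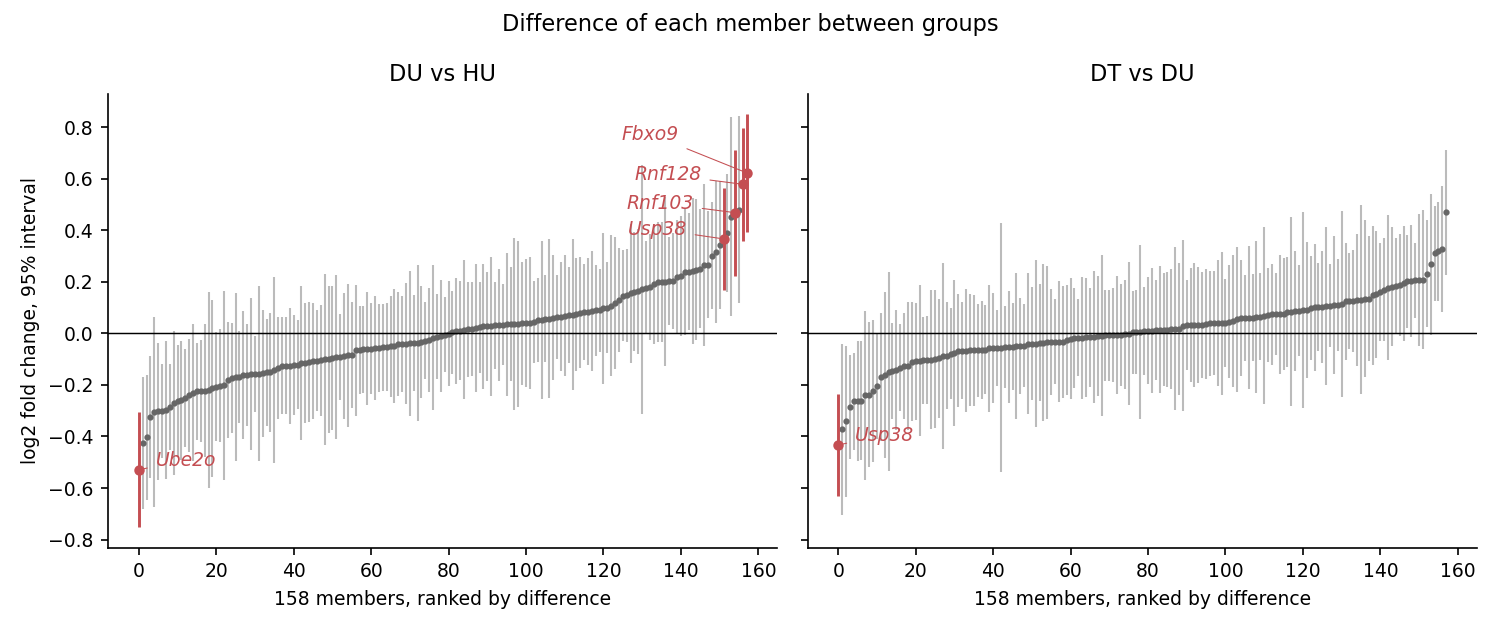
Log2 fold change with its 95% interval (vertical axis) of each of the 158 members, ranked by size (horizontal axis), in DU vs HU (left) and DT vs DU (right). Members with an adjusted p under 0.05 are in red and named. Most intervals include 0, and 144 and 154 of them lie within 1.5-fold.

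**Figure D3:**
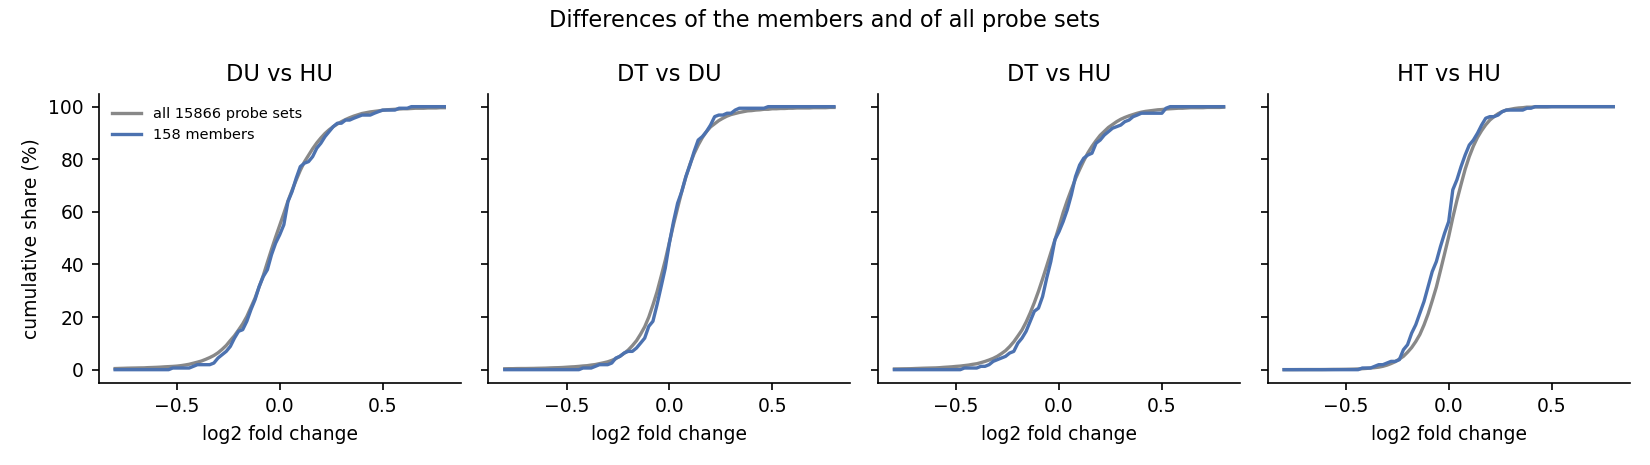
Cumulative share (vertical axis, %) of the 158 members (blue) and of all 15866 probe sets tested (grey) with a log2 fold change up to the value on the horizontal axis, in 4 comparisons. The curves lie nearest in DU vs HU, with medians of -0.01 and -0.02, and farthest apart in HT vs HU, where 37.3% of members and 26.2% of all probe sets lie at or below -0.08.

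Among the conjugating enzymes, Ube2o was the 1 of 26 that passed, in DU vs HU. The group's median difference was 0.02 between DU and HU, -0.03 between DT and DU, -0.01 between DT and HU and -0.04 between HT and HU. Ube2m and Ube2f, which carry NEDD8, the relative of ubiquitin that activates cullin ligases, had differences of 0.45 (adjusted p = 0.181 by limma) and 0.34 (adjusted p = 0.123 by limma) in DU vs HU. The other probe set of Ube2f gave -0.07 there (adjusted p = 0.760 by limma). Of the widely used Ube2d enzymes, Ube2d2 had 0.20 (adjusted p = 0.211) and Ube2d1 -0.30 (adjusted p = 0.0714 by limma). The Ube2d genes are near-identical in places, so a probe set may read more than 1 of them.

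Ube2b and Ube2a, the paired E2 enzymes of DNA repair and histone H2B ubiquitination, had differences of 0.39 (adjusted p = 0.0673) and 0.10 (adjusted p = 0.538) in DU vs HU by limma. Ube2b read 7.43, 7.40 and 7.67 in HU, 7.30, 7.42 and 7.12 in HT, 8.0, 7.79 and 7.87 in DU and 7.79, 7.56 and 7.54 in DT. Its DU arrays lay above all others and it missed the threshold. Its other probe sets gave smaller differences between DU and HU, 0.05 (adjusted p = 0.862) and 0.19 (adjusted p = 0.387), by limma. Ube2n, the E2 that builds lysine-63 chains, differed by 0.07 in DU vs HU, with an interval from -0.22 to 0.36. The other probe set of Ube2n gave 0.24 there (adjusted p = 0.119 by limma).

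The E2 enzymes of ER-associated degradation did not pass in any contrast. Ube2j1, which is anchored in the ER membrane, differed by 0.02 in DU vs HU (interval -0.23 to 0.27) and by 0.15 in DT vs DU, and Ube2j2 by -0.04 and 0.12. Ube2g2 differed by -0.23 in DU vs HU (adjusted p = 0.320) and Ube2g1 by -0.34 in DT vs DU (adjusted p = 0.406), both by limma. The Ube2g1 value was the lowest of the 26 conjugating enzymes in that comparison, and its other probe set gave 0.21 there. The ER ligases Rnf5 and Rnf139 differed by 0.18 and 0.04 in DU vs HU, and Usp19, a deubiquitinase with an ER-anchored form, by -0.20 (adjusted p = 0.280), with 0.13 on its other probe set. None of these 7 passed in any contrast, while Rnf103 was the ER ligase that did.

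None of the 6 HECT ligases passed in any contrast, and their differences ran from -0.18 to 0.06 in DU vs HU and from -0.06 to 0.06 in DT vs DU. Ube3a, the ligase lost in Angelman syndrome, differed by -0.06 in DU vs HU, with an interval from -0.24 to 0.11. The U-box ligases Ube4a and Ube4b, which lengthen ubiquitin chains, differed by 0.25 and -0.09 in DU vs HU. In DT vs HU, Ube4a differed by 0.51 (adjusted p = 0.0683 by limma), with 7.19 and 7.16 on 2 DT arrays and 6.62 on the other, against 6.46, 6.53 and 6.46 in HU. That lower DT array lay within the HT range of 6.43 to 6.66.

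Of the 45 RING ligases, Rnf128 and Rnf103 passed, both higher in DU and in DT than in HU. The group's median difference was 0.00 against HU in both diabetic groups and 0.01 between DT and DU. The highest mean over the 12 arrays among RING ligases was that of Rnf187, at 9.04 ± 0.10 in HU and 9.09 ± 0.14 in DU (SD, n = 3), a difference of 0.05 with an interval from -0.25 to 0.36. A probe set's signal also depends on its probes, so levels do not rank transcripts. Rnf149, chosen after its values were seen, had the largest SD over the 12 arrays of the 158 members, 0.37. Its SD within groups was 0.34.

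None of the 22 Trim ligases passed in any contrast. Trim8, a regulator of cytokine and inflammatory signalling, came near the threshold, and Trim3, described below, came nearer. Trim8 read 6.31, 6.47 and 6.82 in HU and 6.25, 6.28 and 6.35 in HT. It read 6.07, 6.10 and 6.22 in DU and 6.63, 6.48 and 6.69 in DT. The DU arrays lay below all others, and the DT arrays above the DU and HT arrays. Its difference was -0.40 in DU vs HU (adjusted p = 0.0712 by limma), 0.47 in DT vs DU (adjusted p = 0.0742 by limma) and 0.71 in the interaction (adjusted p = 0.100 by limma). With chip lot as a block it passed between DU and HU (-0.57, adjusted p = 0.0376) and between DT and DU (0.47, adjusted p = 0.0386), and with scan day as a random block it passed in the interaction (0.77, adjusted p = 0.0433). HU3, the highest HU array, came from lot 1 and the other HU arrays from lot 2.

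Trim35, whose mean of 9.21 over the 12 arrays was the highest of all members, differed by -0.37 in DT vs DU (adjusted p = 0.424) and by -0.34 in HT vs HU (adjusted p = 0.871). Trim3 differed by -0.28 in DU vs HU (adjusted p = 0.0660 by limma), with 7.15, 7.19 and 7.14 in HU and 6.86, 6.92 and 6.85 in DU. These Trim3 arrays did not overlap, and the difference missed the threshold.

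The ligases of muscle wasting, the F-box receptor Fbxo32 (atrogin-1) and Trim63 (MuRF1), which rise in skeletal muscle of diabetic rats, gave low signals here. Fbxo32 read 4.76 ± 0.05 in HU, 4.60 ± 0.04 in DU and 4.81 ± 0.04 in DT, and Trim63 read 4.73 ± 0.09, 4.80 ± 0.05 and 4.80 ± 0.07 (SD, n = 3). Both means lay under 5.62, the lower quartile of all probe sets, as did those of 28 members in all. Neither passed in any contrast. Between DU and HU, Fbxo32 differed by -0.16 (adjusted p = 0.217) and Trim63 by 0.06 (adjusted p = 0.681), both by limma. Skeletal muscle markers had 1 of 6 lower in DU vs HU (Myh1, also lower in DT vs HU), and none higher. Myh1 had a mean of 9.69 over the arrays and the other muscle markers 4.30 to 6.66, so it is unsure that its probe set read muscle.

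Of the 23 F-box receptors, Fbxo9 passed, higher in DU and in DT than in HU. The group's median difference was 0.04 between DU and HU, 0.02 between DT and DU and 0.03 between DT and HU. Fbxo22 differed by 0.35 in DT vs HU (adjusted p = 0.0620 by limma), at a low signal of 4.57 ± 0.11 in HU and 4.92 ± 0.03 in DT. The dimmest members were Fbxo30 and Fbxo11, at 3.81 ± 0.06 and 3.98 ± 0.06 in HU, and at such a signal a change could go unseen.

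Of the 34 deubiquitinases, Usp38 passed, higher in DU than in HU and lower in DT than in DU. Their median difference was -0.02 between DU and HU, -0.01 between DT and DU and -0.04 between DT and HU. Usp36, a nucleolar enzyme, read 8.29, 8.29 and 8.32 in HU and 7.90, 7.78 and 7.95 in DU. These arrays did not overlap, and the difference of -0.42 missed the threshold (adjusted p = 0.0714 by limma). Usp7, which acts on Mdm2 and p53, read 6.62, 6.55 and 6.56 in DU and 6.90, 6.93 and 6.86 in DT, a difference of 0.32 that also missed it (adjusted p = 0.154 by limma).

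Usp9x, an X-linked enzyme with many substrates, differed by -0.01 in DU vs HU (interval -0.23 to 0.21), and Usp2, known from circadian control, by 0.27 (interval -0.05 to 0.58). The interferon-linked members were Usp18, which strips the ubiquitin relative ISG15, and Ube2l6, its E2. Usp18 differed by 0.20 in DU vs HU (adjusted p = 0.496 by limma) and Ube2l6 by 0.04 (adjusted p = 0.913 by limma). The 5 measured genes of the interferon response list had none past the threshold in any comparison.

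**Figure D4:**
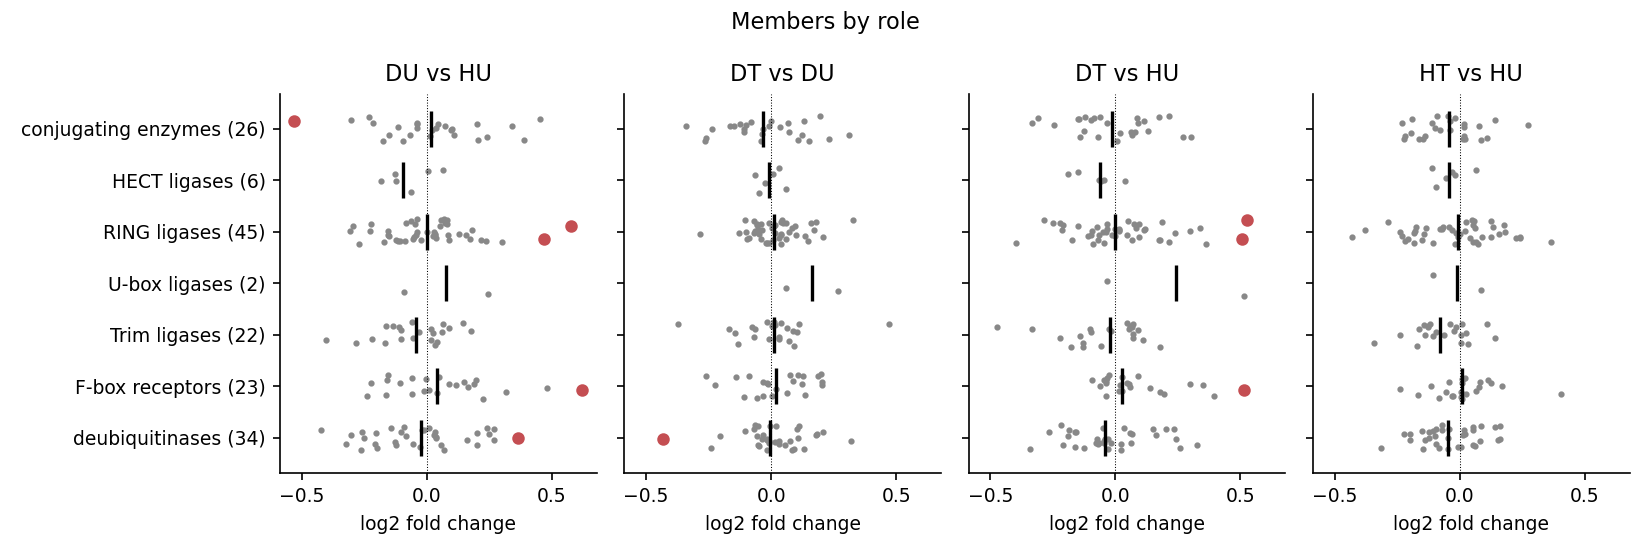
Log2 fold change (horizontal axis) of each member by role (vertical axis, number of members in brackets) in 4 comparisons, with members past an adjusted p of 0.05 in red and the median of each role as a black line. The medians lie between -0.10 and 0.08 in DU vs HU, and that of the 2 U-box ligases reaches 0.24 in DT vs HU. In DU vs HU, members not called, such as Usp36 at -0.42 and Ube2m at 0.45, lie as far out as some of the called ones.

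**Figure D5:**
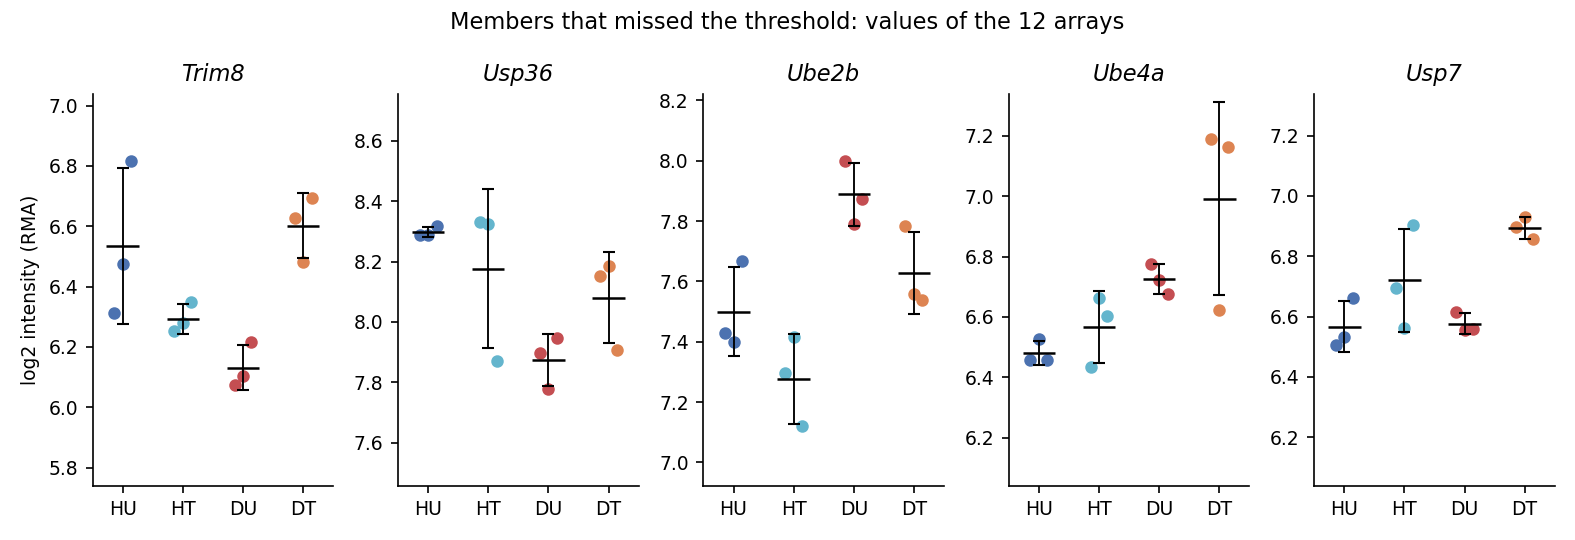
Log2 intensity (RMA scale, vertical axis, a span of the same height in each panel) of 5 members that missed the threshold, chosen after their values were seen, by group (horizontal axis). Points are arrays, lines are group means and bars are 1 SD (n = 3). Trim8 and Usp36 are lowest in DU, Ube2b is highest in DU, and Ube4a and Usp7 are highest in DT.

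Other genes of the pathway were counted in the same way. Of 167 names in 8 lists outside the rule (E1 enzymes, ubiquitin and its relatives, other E2 enzymes, cullin scaffolds and adaptors, other HECT and RBR ligases, other RING and U-box ligases, other deubiquitinases and ER-associated degradation partners), 119 were measured, without Rnf7, a listed name that is itself a member. Between DU and HU none was higher and 2 were lower, beside 3.20% of all probe sets, and between DT and DU 1 was higher, beside 1.12%. In the interaction 1 was higher, and in DT vs HU and HT vs HU none passed. The median difference over the 119 genes was -0.01 between DU and HU and 0.02 between DT and DU.

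Both lower genes are partners of ligases. Sel1l, the adaptor of the ER ligase Hrd1, fell by 1.04 on the log2 scale in DU vs HU (adjusted p = 9.4e-05 by limma) and was higher by 1.16 in DT vs DU (adjusted p = 4.3e-05 by limma), with a difference of 0.12 left in DT vs HU. Its interaction was 1.09 (adjusted p = 0.0041 by limma). Kctd10, an adaptor of Cul3 ligases, fell by 0.35 in DU vs HU (adjusted p = 0.0331 by limma). The 6 measured E1 genes had none past the threshold: Uba1, the main E1 for ubiquitin, differed by -0.07 in DU vs HU.

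Some markers of pancreatic cell types moved between groups. Beta cell markers had 4 of 6 lower in DU vs HU, and their summed linear signal was 24900 to 27100 in HU, 2370 to 3170 in DU and 3480 to 8670 in DT. The sum of the 9 acinar markers was 166000 to 169000 in HU, 152000 to 158000 in DU and 164000 to 171000 in DT. Of the acinar markers, Amy2a3, the pancreatic amylase, was the 1 that passed, lower by 5.18 (log2) in DU vs HU and higher by 5.01 in DT vs DU. The other acinar markers differed by -0.12 to 0.03 in DU vs HU. Their means were 14.03 to 14.49, near the highest value on the arrays, 14.6, so the lower DU sum does not show a general fall. In other lists Sst, the somatostatin of delta cells, was higher in DU vs HU, and the collagens Col1a2 and Col3a1 were lower in DT vs HU. Of the 5 measured duct genes, Spp1 was lower in DT vs DU, and the list's median difference there was 0.01. The part of these shifts in the differences of the 5 called members was not tested.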

How the data were processed

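The 12 arrays, 3 for each of 4 groups, measured pancreas RNA. The deposited values are log2 intensities that the authors made by RMA (background adjustment, quantile normalization and a summary per probe set), and they were used without a further transformation. No source used here gives the software version of that step. The deposited records of the arrays gave their scan day and chip lot, which were coded as days 1 to 6 and lots 1 to 3. Arrays have no read depth, and their number limits the precision.

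Of 15923 probe sets, 57 controls were left out. The other 15866 were fitted with limma 3.58.1 in R 4.3.3, with a mean for each group and moderation by eBayes, and p-values were adjusted by Benjamini-Hochberg over all of them within each of 5 contrasts. A probe set was called at an adjusted p under 0.05. The fit was tested on simulated data. Probe sets were named through the platform annotation, in which 12783 had 1 symbol, 312 several and 2771 none. The 5 probe sets with several symbols, 1 of them that of a member, were not used. All 158 members matched RefSeq by gene ID.

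The members, gene lists and named genes were chosen with earlier results of these data known. Named were the members called in a contrast, those with the 2 highest and 2 lowest means, 27 known genes, of which 21 were measured members, and 8 that came near the threshold. The alternatives were other normalizations, a filter on dim probe sets, the 6 arrays compared alone, a variance trend, a block for the chip lot, the scan day or the replicate number, the B-statistic, another probe set per gene and leaving out each array.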

Additional observations from a re-analysis of the deposited data

How the results depend on the processing

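The count of members called moved with the handling of batches, with single arrays and with some other settings. In DU vs HU it was 5, and it was 0 with scan day as a block, 3 with scan day as a random block, 3 with chip lot as a block (of the 5, Fbxo9 remained) and 3 by the B-statistic. With the variance trend and robust moderation Usp38 no longer passed there (adjusted p = 0.0527 by limma). Leaving out 1 array gave 2 to 6 calls there, with 2 without DU1 and 3 without DU2, HT1, HT2, HU1, HU2 or HU3. In DT vs DU it was 1, and it was 0 with median centring, with the 6 arrays compared alone and with scan day as a block. Leaving out 1 array gave 0 to 2, with 0 without DT3, DU1, DU2, DU3, HT1, HT2, HU1 or HU2 and 2 without HU3. In DT vs HU it was 3, and it was 0 with the 6 arrays alone, with scan day as a block and with chip lot as a block, and 1 with scan day as a random block. Leaving out 1 array gave 0 to 4 there, with 0 without DT3, HU2 or HU3 and 1 without DT1, DU1, DU2 or HU1. In the interaction it was 0, and it was 1 with scan day as a random block, and 0 to 1 without 1 array (Usp38 without DT1). In HT vs HU it was 0 under every alternative run. The smaller groups and the scan days that held few arrays left fewer degrees of freedom. What caused the counts to move was not tested.

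The replicate block gave 5 calls between DU and HU, 1 between DT and DU, 3 between DT and HU, 0 between HT and HU and 1 in the interaction, where Trim8 passed. It also passed in place of Usp38 in both comparisons that had called Usp38. Over 18 pairs of arrays with the same number, the correlation of their deviations from the group means ran from -0.286 to 0.314, and it was over 0.1 in 5, so the numbers do not pair the arrays. Rnf187 reversed in DU vs HU with the probe set of largest variance, to -0.44 (adjusted p = 0.0199 by limma), from 0.05. Of the other values for named genes under these alternatives, 3578 kept their direction and side of the threshold, 82 no longer passed, 18 came to pass and 210 that passed in neither setting changed sign.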

Other observations

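The members' other probe sets, 40 in all, had 1 past the threshold in DU vs HU and none in the other contrasts. It was the second probe set of Rnf187, which read 8.63, 8.52 and 8.81 in HU, 8.63, 8.61 and 8.42 in HT, 8.20, 8.22 and 8.22 in DU and 8.55, 8.47 and 8.37 in DT. Its DU arrays lay below all others, with a difference of -0.44 in DU vs HU (adjusted p = 0.0199 by limma), whereas the probe set used above differed by 0.05 (adjusted p = 0.871 by limma). The probe sets of Rnf187 thus disagreed. Those of many of the 34 members with several probe sets differed in sign between DU and HU without passing. Among these were Ube2f, Ube2g1, Usp19, Fbxo3, Rnf138, Rnf149, Ube2l3 and Usp48.

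The members with the largest SD over the 12 arrays after Rnf149 were Fbxo9 (0.29), Fbxw4 (0.29) and Ube2m (0.28). The SD within groups was 0.13 for Fbxo9, 0.24 for Fbxw4 and 0.27 for Ube2m. Over the 158 members the median SD over arrays was 0.147 and the median SD within groups 0.129, beside 0.142 and 0.128 over all probe sets. The values of 3 members spanned over 1 log2 unit (1.90%), beside 4.85% of all probe sets.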
